A study of Mus musculus with 8 samples.

Results

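The 62 mouse genes described here belong to the solute carrier families that hold the amino acid carriers and their partner proteins, and their RNA was measured in brain pericyte cultures with and without TGF-β1. They were taken by name: protein-coding genes of the SLC1, SLC3, SLC6, SLC7, SLC36, SLC38 and SLC43 families, with *Slc6a13* and *Slc7a11* left out. Of the 54532 gene identifiers in the count files, 67 had a symbol of that form, 3 of these were not protein-coding and 2 were the named exceptions. The 62 members included 7 that were grouped as carrying no amino acid or having no known amino acid substrate, namely the monoamine carriers *Slc6a2*, *Slc6a3* and *Slc6a4*, the purine nucleobase carrier *Slc43a3*, *Slc6a16*, *Slc6a21*, and *Slc7a6os*, which encodes no carrier and lies beside *Slc7a6*. *Slc7a4*, whose protein has no settled substrate, was kept in the cationic class and is not among these 7.

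Many amino acid carriers of the plasma membrane exchange one amino acid for another or use the sodium gradient to concentrate them. Others are coupled to protons or let amino acids pass without a coupled ion. Carriers of the lysosome return amino acids to the cytosol. Several SLC7 carriers work only as heterodimers, in which a single-span heavy chain (*Slc3a2*, also called 4F2hc or CD98, or *Slc3a1*, rBAT) brings the transporting light chain to the membrane. Large neutral amino acids such as leucine pass the blood-brain barrier by this route, arginine enters by the cationic carriers, and in brain the SLC1 carriers clear glutamate, mainly into astrocytes.

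Bulk RNA sequencing was performed on 8 primary cultures of wild-type (WT) mouse brain cells labelled as pericytes, the mural cells of capillaries, sampled at 48 h. Vehicle was given to 4 cultures (numbered 1 to 4), and the secreted cytokine TGF-β1, at the 5 μg/mL that the study's methods state, to the other 4 (numbered 5 to 8). The comparison asked how TGF-β1 changes the pericyte transcriptome. The methods speak of 4 independent isolates given both treatments, but the labels tie no vehicle culture to a TGF-β1 culture and name no animal, so no pairing entered the test. The p-values measure the spread between these cultures. The deposited counts summed to between 45255235 and 47651397 per culture, at which 3 counts were worth 0.0631 to 0.0657 counts per 1000000 (CPM), and the first principal component, with 52.4% of the variance, separated the 4 vehicle from the 4 TGF-β1 cultures.

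The label was checked against marker genes. Among the pericyte and mural cell markers, *Pdgfrb* was at 202 ± 5.42 CPM in vehicle and 291 ± 2.58 CPM in TGF-β1 cultures (SD, n = 4), *Acta2* at 730 and 715 CPM and *Notch3* at 88.4 and 85.8 CPM. *Cspg4* rose from 82.8 to 169 CPM (log2 fold change 1.03, edgeR adjusted p = 2.02e-30), *Rgs5* fell from 8.61 to 2.13 CPM (-2.02, edgeR adjusted p = 7.63e-21) and *Anpep* fell from 40.4 to 30.1 CPM (-0.43, edgeR adjusted p = 5.13e-09). In every culture *Des* was below 1 CPM and *Kcnj8* at or under 3 counts. *Abcc9*, which like *Kcnj8* was not tested, was at 0 to 9 counts. Of the 10 markers on this list 8 were tested, 3 were higher (*Pdgfrb*, *Cspg4* and *Mcam*) and 2 lower, and all 10 summed to 1121 to 1184 CPM in vehicle and 1293 to 1313 CPM in TGF-β1 cultures. Here and for the other marker lists, a marker counted as higher or lower at an edgeR adjusted p under 0.05. Of all genes tested, 41.3% passed that threshold in either direction. Of the 7 endothelial markers 5 were tested, 2 were higher (*Flt1* and *Vwf*) and 1 lower (*Tek*). The list summed to 455 to 469 CPM against 455 to 482 CPM. *Cdh5* was at 375 and 367 CPM and *Flt1* at 81.6 and 99.1 CPM. The rest were low, with *Vwf* at 1.57 and 3.81 CPM, *Tek* at 2.71 and 1.99 CPM, *Pecam1* near 1.1 CPM, *Cldn5* at 0 to 10 counts and *Emcn* at 4 to 14 counts. Summed over the fibroblast list, the level was 1650 to 1732 CPM in vehicle and 2565 to 2692 CPM in TGF-β1 cultures, nearly all of it *Col1a1*. Of its 4 markers 3 were tested, with *Col1a1* higher, *Dcn* lower at 52.0 and 46.6 CPM, and *Pdgfra* not called at 62.5 and 63.0 CPM. *Lum* was at 2 to 6 counts. The macrophage and microglia list summed to 8.06 to 8.92 CPM against 9.29 to 11.1 CPM, and the oligodendrocyte list to 4.12 to 5.48 against 5.33 to 6.04 CPM. In bulk RNA, fewer cells of a type and less RNA per cell cannot be told apart, which holds for every value given here.

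Members both rose and fell with TGF-β1, also within the classes of acidic, small neutral and large neutral amino acid carriers. In the cationic class, 2 of the 5 members tested passed, and both rose. Among the members tested, *Slc7a8*, *Slc1a2*, *Slc38a4* and *Slc1a6* fell the most, while *Slc6a17*, *Slc43a2*, *Slc6a15*, *Slc1a3* and *Slc7a6* rose the most. Of the 62 members, 42 passed the filter on low counts and were tested, and 27 of these had an adjusted p under 0.05 (quasi-likelihood test of edgeR on the counts, adjusted by Benjamini and Hochberg's method across 22544 genes), 13 of them higher and 14 lower with TGF-β1. That is 64.3% of the members tested. Over all genes tested, 41.3% passed in either direction, 20.9% as higher and 20.3% as lower. The median log2 fold change was -0.01 both over the 42 members and over all genes, and the median absolute log2 fold change was 0.26 over the members and 0.18 over all genes. In 25 members the lowest culture of one group lay above the highest of the other, which held for 37.9% of all genes tested. A change of at least 0.5 on the log2 scale with the same adjusted p was found for 9 members and for 14.0% of all genes. The members tested had passed a filter on counts, so these shares describe them and not all 62.

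**Figure D1:**
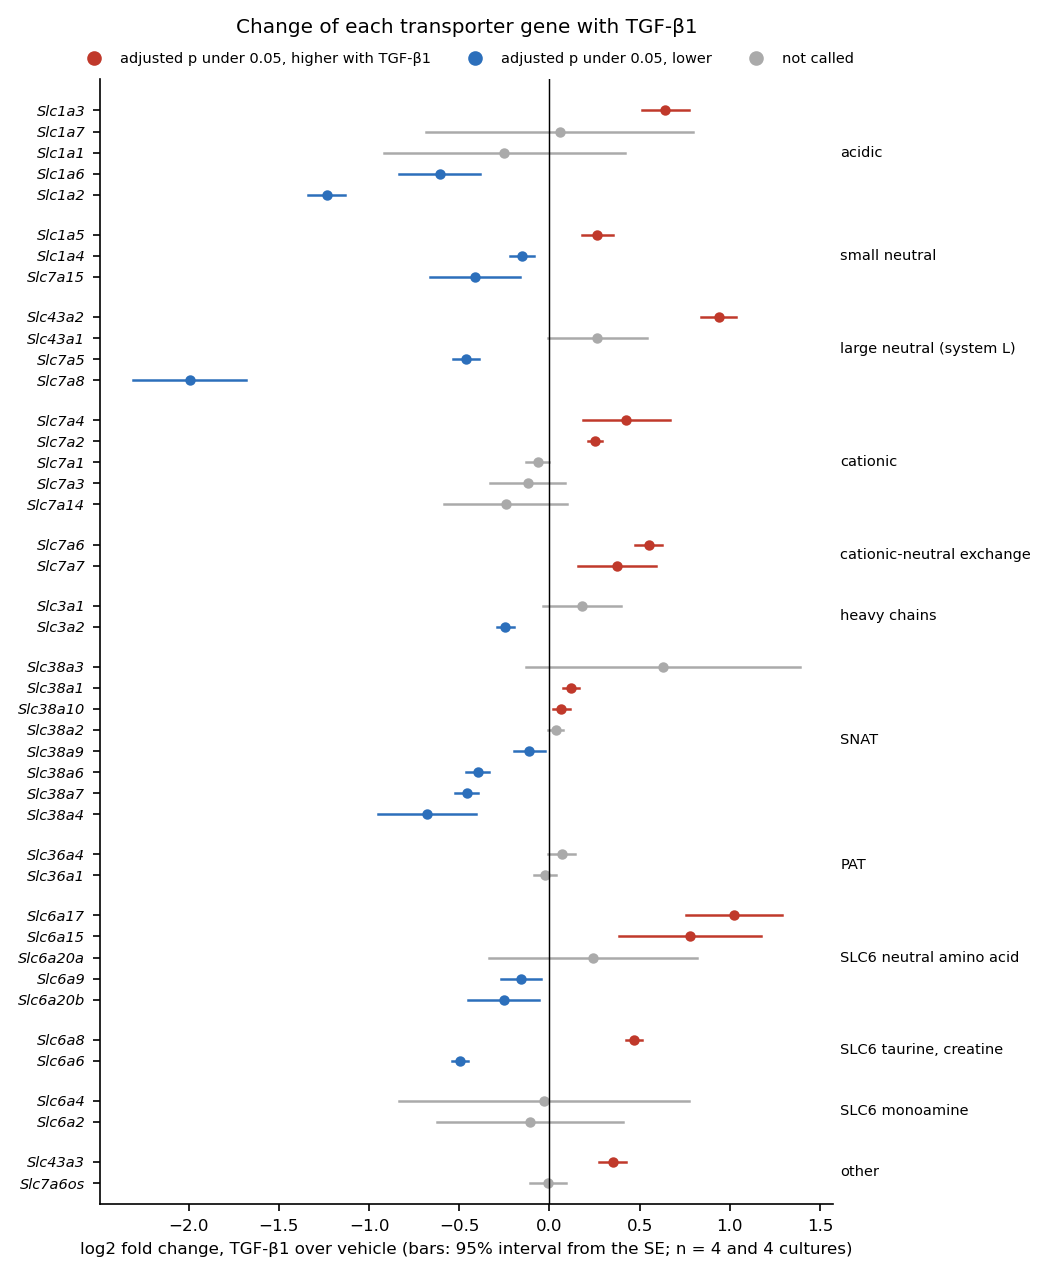
log2 fold change of each of the 42 members tested, TGF-β1 over vehicle, grouped by substrate class, with bars for the 95% interval given by the SE (4 and 4 cultures). Values run from -1.996 for *Slc7a8* to 1.02 for *Slc6a17*, and most classes hold members on both sides of 0.

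Levels between genes were compared as RPKM, the CPM divided by the length in kilobases of the union of a gene's exons. The 5 members of highest mean RPKM were *Slc7a2* with 89.2, *Slc6a8* with 62.9, *Slc3a2* with 59.4, *Slc38a2* with 58.6 and *Slc6a6* with 35.2. In each vehicle culture these 5 held 60.8% to 61.3% of the summed RPKM of all members, and in each TGF-β1 culture 62.5% to 63.3%. The sum itself lay between 485 and 492 RPKM in vehicle and between 491 and 499 RPKM in TGF-β1 cultures, so the groups overlapped. By contrast, the 4 members with the lowest mean RPKM among those tested, *Slc1a1*, *Slc6a4*, *Slc38a3* and *Slc1a7*, were below 0.1 RPKM.

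**Figure D2:**
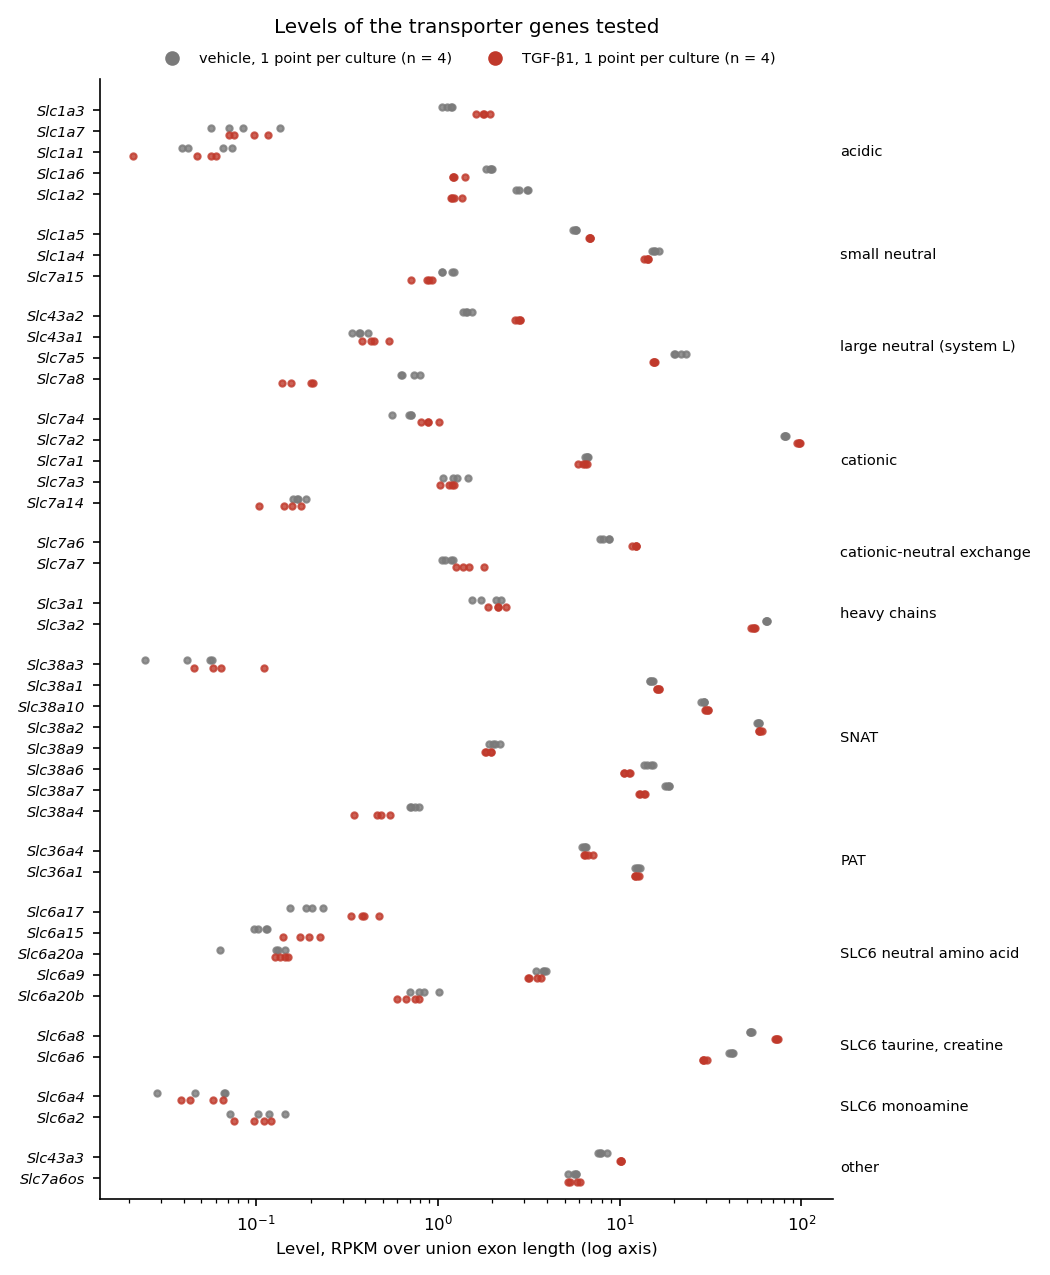
Level of each of the 42 members tested in RPKM on a log axis, with 1 point per culture (grey, vehicle; red, TGF-β1; 4 cultures each). *Slc7a2* was highest in both groups (81.4 RPKM in vehicle and 96.9 RPKM with TGF-β1), and the spread between cultures widens for members below 0.1 RPKM.

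The large neutral amino acid carriers of system L were split. *Slc7a8*, which encodes the 4F2hc-bound exchanger LAT2 (ENSMUSG00000022180, chr14:54722209-54781946, GRCm38), had the largest change of the members tested. It was at 3.68, 3.16, 3.17 and 4.00 CPM in vehicle cultures 1 to 4 and at 0.698, 0.783, 1.02 and 0.999 CPM in TGF-β1 cultures 5 to 8. Every vehicle culture was thus above every TGF-β1 culture, and the log2 fold change was -1.996 (SE 0.16, edgeR adjusted p = 2.05e-14), a level of 0.251 times that of vehicle. These values rest on 32 to 185 counts per culture. *Slc7a5*, the leucine carrier LAT1 and the other large neutral light chain, also fell, from 79.1 ± 5.51 to 57.4 ± 0.597 CPM (SD, n = 4), a log2 fold change of -0.46 (SE 0.04, edgeR adjusted p = 8.24e-14). In RPKM it stayed the main member of the class, with 21.3 in vehicle and 15.5 in TGF-β1 cultures, against 0.700 and 0.175 RPKM for *Slc7a8*.

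The facilitative carriers of the same substrates, which need no heavy chain, were not lower. *Slc43a2*, which encodes LAT4 (ENSMUSG00000038178, chr11:75531694-75577575), was at 14.6, 13.8, 15.4 and 14.4 CPM with vehicle and at 26.7, 28.6, 28.5 and 27.8 CPM with TGF-β1. The groups were far apart relative to their spread, with a log2 fold change of 0.94 (SE 0.05, edgeR adjusted p = 4.86e-20). Of its exon sequence, 8.75% in 50-base words occurs in other genes as well. *Slc43a1*, which encodes LAT3, was at 2.14 ± 0.184 and 2.57 ± 0.367 CPM, its groups overlapped, and its log2 fold change of 0.27 did not pass (SE 0.14, edgeR adjusted p = 0.134). Summed over the 4 genes of the class, the level went from between 22.4 and 25.9 RPKM in vehicle to between 18.6 and 19.1 RPKM in TGF-β1 cultures, most of it *Slc7a5*.

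Of the heavy chains, only *Slc3a2* was abundant. This gene (ENSMUSG00000010095, chr19:8706882-8723369) was at 226, 228, 226 and 230 CPM in the vehicle cultures and at 196, 192, 193 and 187 CPM in the TGF-β1 cultures. All 4 TGF-β1 values were lower, by 15.7% in the fit (log2 fold change -0.25, SE 0.02, edgeR adjusted p = 6.33e-12). *Slc3a1*, the partner of the renal cystine carrier, was at 4.30 ± 0.712 and 4.87 ± 0.434 CPM and did not pass (log2 fold change 0.18, edgeR adjusted p = 0.201), and 24.8% of its 50-base words also lie in other genes, chiefly *Prepl* on the opposite strand.

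The light chains that pair with *Slc3a2* and export cationic amino acids in exchange for neutral ones with sodium both rose. *Slc7a6*, which encodes y+LAT2 (ENSMUSG00000031904, chr8:106168857-106198706), was at 35.8, 39.9, 36.9 and 40.0 CPM with vehicle and at 56.5, 56.3, 53.8 and 56.6 CPM with TGF-β1. The lowest TGF-β1 culture, number 7, was still above the highest vehicle culture, and the log2 fold change was 0.55 (SE 0.04, edgeR adjusted p = 1.64e-16). *Slc7a7*, which encodes y+LAT1, went from 3.78 ± 0.253 to 4.91 ± 0.755 CPM without overlap (log2 fold change 0.37, SE 0.11, edgeR adjusted p = 0.00481), but without TGF-β1 culture 7 it no longer passed (0.26, edgeR adjusted p = 0.0678).

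Light chains of the 4F2hc heterodimer thus shifted against each other. The ratio of *Slc7a5* to *Slc7a6* in RPKM was 2.30 to 2.699 in the vehicle and 1.23 to 1.33 in the TGF-β1 cultures. *Slc3a2* over the sum of *Slc7a5*, *Slc7a6*, *Slc7a7*, *Slc7a8* and *Slc7a10* was 1.92 to 2.14 with vehicle and 1.80 to 1.91 with TGF-β1. The light chain gene *Slc7a11*, left out of the members by name, is not in this sum. These ratios, and those given for other carriers, were chosen with the values known and are given without a test.

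**Figure D3:**
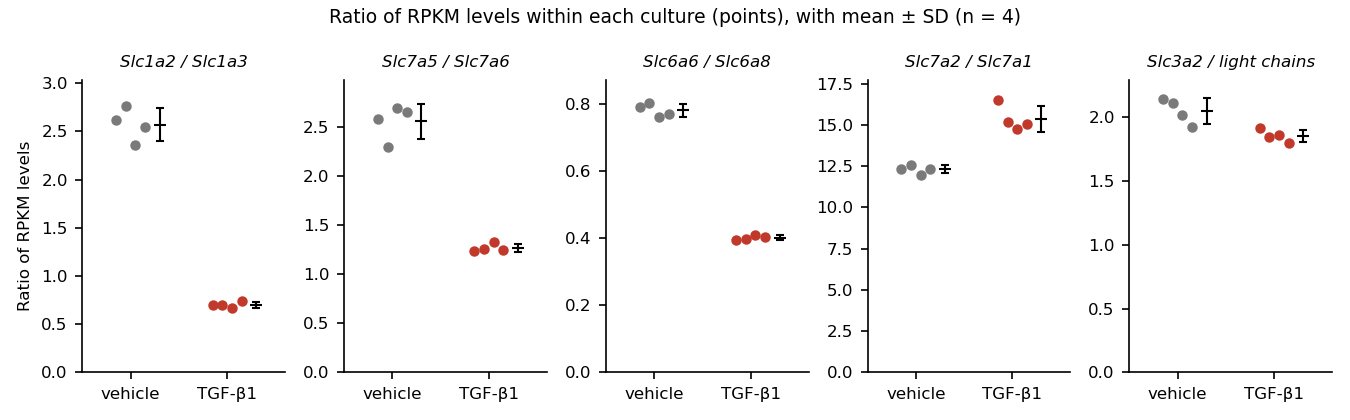
Ratio of RPKM levels within each culture (points, 4 per group) with the mean and SD, each panel on its own axis starting at 0. The ratio of *Slc1a2* to *Slc1a3* went from a mean of 2.57 to 0.700, that of *Slc7a5* to *Slc7a6* from 2.56 to 1.27, that of *Slc6a6* to *Slc6a8* from 0.781 to 0.401, and that of *Slc7a2* to *Slc7a1* from 12.3 to 15.4. The ratio of *Slc3a2* to the sum of *Slc7a5*, *Slc7a6*, *Slc7a7*, *Slc7a8* and *Slc7a10*, without *Slc7a11*, went from 2.05 to 1.85.

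Among the carriers of glutamate and aspartate, the glial carriers moved in opposite directions. *Slc1a2*, the glial carrier GLT-1 (ENSMUSG00000005089, chr2:102658659-102790784), was at 41.2, 40.6, 36.8 and 35.2 CPM in vehicle and at 17.8, 16.1, 15.6 and 15.8 CPM in TGF-β1 cultures. The groups did not come near each other, and the log2 fold change was -1.24 (SE 0.05, edgeR adjusted p = 4.91e-23). *Slc1a3*, the other glial carrier, GLAST (ENSMUSG00000005360, chr15:8634124-8710764), was at 10.2, 9.55, 10.2 and 9.004 CPM against 16.5, 15.1, 15.3 and 13.8 CPM. All TGF-β1 values were higher (log2 fold change 0.64, SE 0.07, edgeR adjusted p = 4.5e-11). Per length, *Slc1a2* was 2.36 to 2.76 times as high as *Slc1a3* in the vehicle cultures and 0.664 to 0.741 times as high in the TGF-β1 cultures.

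Astrocytes are the cells best known for both carriers, so their markers are given beside them. Of 6 astrocyte markers, 5 were tested, *Aldh1l1* and *Slc4a4* being higher and *S100b* and *Fgfr3* lower with TGF-β1. Their summed level was 128 to 132 CPM in vehicle and 148 to 153 CPM in TGF-β1 cultures, of which *Slc4a4* made up 114 and 135 CPM. The defining marker *Gfap* was at 0.878 and 0.946 CPM, and *Aqp4* was at 0 counts in every vehicle culture and at most 6 counts with TGF-β1. The part of astrocytes in the values of *Slc1a2* and *Slc1a3* was not tested.

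*Slc1a6*, the glutamate carrier known from cerebellar Purkinje cells (ENSMUSG00000005357, chr10:78780496-78814765), was at 4.18, 4.29, 3.95 and 4.22 CPM with vehicle and at 3.05, 2.61, 2.62 and 2.64 CPM with TGF-β1. Culture 5 stood above the other TGF-β1 cultures but below all vehicle cultures (log2 fold change -0.61, SE 0.11, edgeR adjusted p = 2.12e-05). *Slc1a1*, the neuronal carrier EAAT3, and *Slc1a7*, the retinal carrier EAAT5, were below 0.5 CPM in each group's mean with overlapping groups, and neither passed (edgeR adjusted p = 0.605 and 0.925). The *Slc1a1* counts are uncertain besides, since 31.0% of its 50-base words are shared with a gene on the opposite strand. Over the 6 genes of the class, the untested *Slc7a13* included, the summed level was 5.92 to 6.47 RPKM in vehicle and 4.24 to 4.88 RPKM in TGF-β1 cultures.

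**Figure D4:**
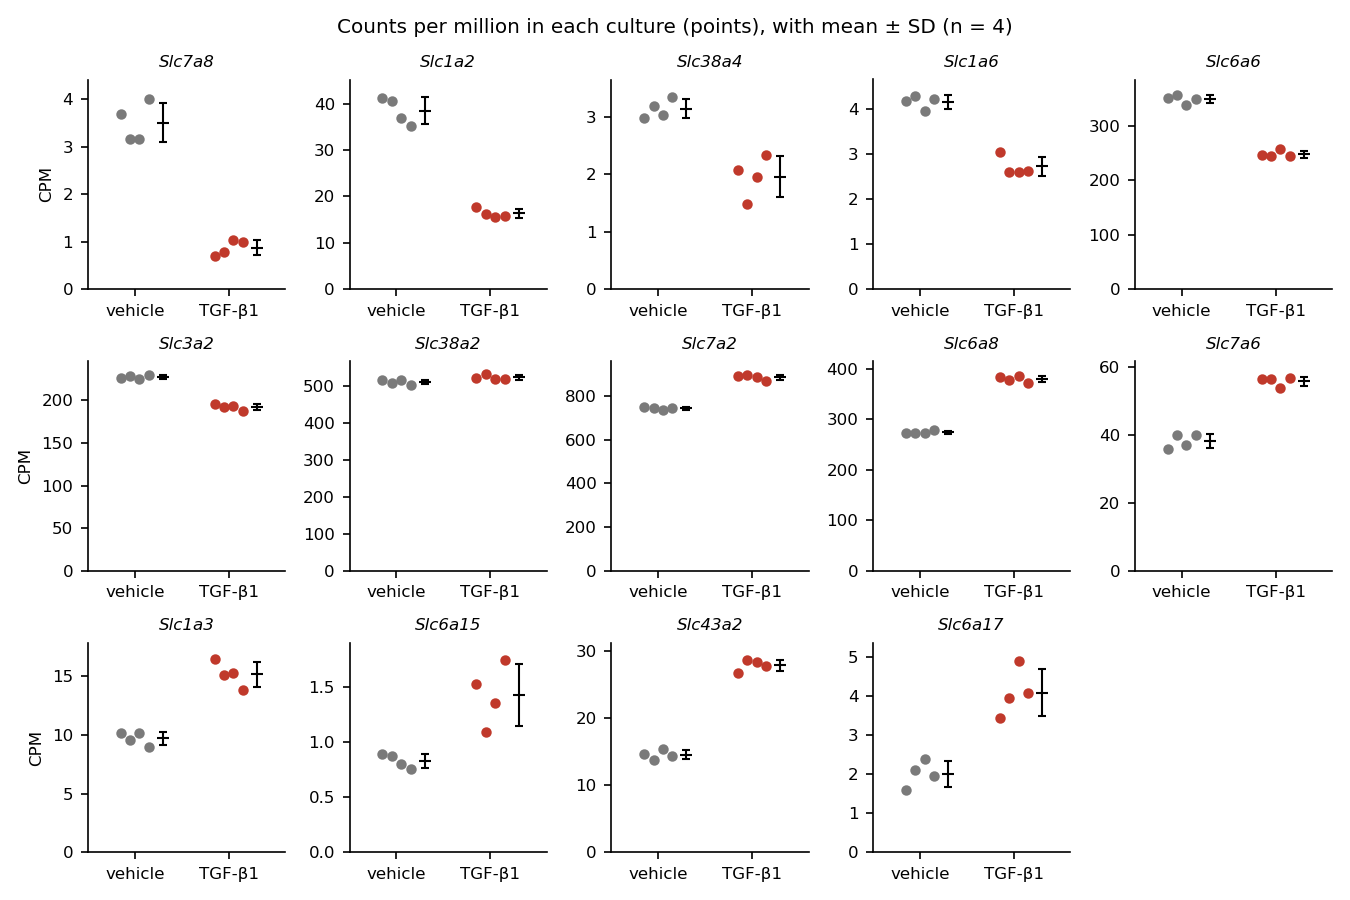
CPM in each culture (points) with the mean and SD of 4 cultures for the 14 members with a change of at least 0.5 on the log2 scale or among the 5 highest in RPKM, ordered by log2 fold change, each panel on its own axis starting at 0. In all 14 the groups do not overlap, with the narrowest separation in *Slc38a2*, whose vehicle cultures reach 517 CPM and whose TGF-β1 cultures begin at 519 CPM.

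The exchangers of small neutral amino acids were also divided. *Slc1a5*, the glutamine exchanger ASCT2, rose from 23.8 ± 0.427 to 28.6 ± 0.117 CPM (SD, n = 4; log2 fold change 0.27, SE 0.04, edgeR adjusted p = 2.17e-06). *Slc1a4*, which encodes ASCT1, a carrier of alanine, serine and cysteine, fell from 61.5 ± 2.35 to 55.4 ± 1.26 CPM (-0.15, SE 0.03, edgeR adjusted p = 0.000199). In RPKM, *Slc1a4* remained above *Slc1a5* in both groups, at 15.7 against 5.70 in vehicle and 14.1 against 6.85 with TGF-β1. *Slc7a15* was placed in this class by its symbol alone, and its substrates were not examined here. It fell from 3.40 ± 0.278 to 2.55 ± 0.282 CPM (-0.41, SE 0.13, edgeR adjusted p = 0.00701).

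All 5 members of the cationic class were tested, and 2 rose, the most abundant member of all and the scarce *Slc7a4*. That is 40.0% of the class, while 41.3% of all genes tested passed in either direction. *Slc7a2*, the arginine and lysine carrier CAT-2 (ENSMUSG00000031596, chr8:40862396-40922308), was at 749, 744, 734 and 746 CPM in vehicle and at 890, 896, 888 and 868 CPM in TGF-β1 cultures. The rise was 19.1%, with tight groups (log2 fold change 0.25, SE 0.02, edgeR adjusted p = 6.27e-14), on 33971 to 41164 counts per culture, and 6.42% of its 50-base words occur in other genes. *Slc7a1*, the widely expressed CAT-1, was at 76.2 ± 1.19 and 72.8 ± 3.47 CPM and did not pass (-0.07, SE 0.03, edgeR adjusted p = 0.0963). Leaving out TGF-β1 culture 7 brought it past the threshold as lower (-0.09, edgeR adjusted p = 0.0343), as did library totals in place of TMM factors (-0.08, edgeR adjusted p = 0.0437).

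The other members of the class were low. *Slc7a4*, a related gene whose protein has no settled substrate, rose from 2.77 ± 0.302 to 3.72 ± 0.357 CPM (log2 fold change 0.43, SE 0.12, edgeR adjusted p = 0.00395), and vehicle culture 1 was below the other 3. *Slc7a3*, known as CAT-3, at 4.75 and 4.37 CPM, and *Slc7a14*, which encodes a lysosomal relative, at 1.69 and 1.43 CPM, did not pass (edgeR adjusted p = 0.401 and 0.285). The summed level of the class went from between 89.2 and 90.6 RPKM to between 104 and 107 RPKM, most of which was *Slc7a2*, whose share of the RPKM of all members was 16.6% to 16.8% in vehicle and 19.4% to 19.8% in TGF-β1 cultures.

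Of the 8 sodium-coupled neutral amino acid carriers (SNAT, SLC38) tested, 2 rose and 4 fell, together 75.0% against 41.3% of all genes tested. *Slc38a2*, the starvation-inducible system A carrier SNAT2 (ENSMUSG00000022462, chr15:96687392-96699730), was at 517, 509, 515 and 504 CPM with vehicle and at 522, 534, 520 and 519 CPM with TGF-β1. Although the groups did not overlap, the difference of 2.42% did not pass (log2 fold change 0.03, SE 0.02, edgeR adjusted p = 0.213). Its neighbour *Slc38a1*, the glutamine carrier SNAT1, rose by 8.71%, from 258 ± 4.40 to 280 ± 4.51 CPM (0.12, SE 0.02, edgeR adjusted p = 3.2e-05).

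*Slc38a4*, the system A carrier best known in liver and placenta (ENSMUSG00000022464, chr15:96994820-97055956), was at 2.99, 3.20, 3.03 and 3.35 CPM in vehicle and at 2.07, 1.48, 1.96 and 2.34 CPM in TGF-β1 cultures. The TGF-β1 cultures were more scattered but all lower (log2 fold change -0.68, SE 0.14, edgeR adjusted p = 8.1e-05). *Slc38a3*, of the glutamine-preferring system N, was at 6 to 27 counts per culture and did not pass (0.63, SE 0.39, edgeR adjusted p = 0.203).

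SNAT members of the lysosome or of less settled location made up most of the falls in this family. *Slc38a7*, the lysosomal glutamine exporter, fell from 75.8 ± 1.77 to 55.1 ± 2.01 CPM (log2 fold change -0.46, SE 0.03, edgeR adjusted p = 3.72e-16). *Slc38a6* fell from 113 ± 5.79 to 85.5 ± 3.62 CPM (-0.40, SE 0.03, edgeR adjusted p = 1.64e-12), but 35.5% of its 50-base words occur in other genes, so its counts are uncertain. *Slc38a9*, the arginine sensor of the lysosome, was at 34.2 ± 1.89 and 31.7 ± 1.33 CPM with overlapping groups (-0.11, SE 0.04, edgeR adjusted p = 0.0379).

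That call for *Slc38a9* was lost without vehicle culture 2, 3 or 4 (edgeR adjusted p = 0.220, 0.0578 and 0.0743) or TGF-β1 culture 5 or 6 (0.119 and 0.0936), and with DESeq2 (adjusted p = 0.0993). Without vehicle culture 2 the log2 fold change of *Slc38a9* was -0.07. *Slc38a10*, a ubiquitous family member, was 4.64% higher with TGF-β1, at 185 ± 3.25 and 194 ± 3.96 CPM (0.07, SE 0.02, edgeR adjusted p = 0.0287). It no longer passed without vehicle culture 2 (edgeR adjusted p = 0.0841), TGF-β1 culture 6 (0.122) or TGF-β1 culture 7 (0.108), with library totals in place of TMM factors (0.0590), or when the filter only required a single count in some culture (0.104).

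The proton-coupled carriers of small neutral amino acids showed no change that passed. *Slc36a1*, the lysosomal carrier PAT1, was at 70.7 ± 2.11 and 69.6 ± 1.64 CPM (log2 fold change -0.02, SE 0.03, edgeR adjusted p = 0.608). *Slc36a4*, which encodes PAT4, was at 41.8 ± 0.784 and 43.8 ± 2.36 CPM (0.07, SE 0.04, edgeR adjusted p = 0.171).

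Among the SLC6 members tested, the largest rises were in carriers of neutral amino acids known from neurons. *Slc6a17*, a vesicular carrier also called NTT4 (ENSMUSG00000027894, chr3:107467543-107518018), was at 1.58, 2.10, 2.40 and 1.95 CPM with vehicle and at 3.44, 3.94, 4.88 and 4.06 CPM with TGF-β1. The lowest TGF-β1 culture was above the highest vehicle culture, and the level was 2.03 times that of vehicle (log2 fold change 1.02, SE 0.14, edgeR adjusted p = 2.45e-08). *Slc6a15*, which encodes the branched-chain amino acid carrier B0AT2 (ENSMUSG00000019894, chr10:103367783-103419377), was at 0.889, 0.876, 0.799 and 0.758 CPM against 1.53, 1.09, 1.35 and 1.74 CPM. The groups were apart, with the wider spread in the TGF-β1 cultures (log2 fold change 0.78, SE 0.20, edgeR adjusted p = 0.00134). Both are scarce transcripts, on 73 to 224 and 35 to 82 counts per culture and with group means below 0.4 RPKM. The neuron marker list (*Rbfox3*, *Snap25*, *Syt1*, *Stmn2* and *Nefl*) had 2 members tested and none that passed. *Stmn2*, which was not tested, was at 4 to 6 counts in vehicle and 8 to 22 counts in TGF-β1 cultures, without overlap, whereas *Snap25*, *Syt1*, *Rbfox3* and *Nefl* had overlapping groups. The summed level of the list was 2.59 to 3.32 CPM against 2.64 to 3.05 CPM, and its part in these rises was not tested.

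The other SLC6 carriers of this class had smaller changes. *Slc6a9*, the glycine carrier GlyT1, was at 19.4 ± 1.02 and 17.4 ± 1.39 CPM with overlapping groups (log2 fold change -0.16, SE 0.06, edgeR adjusted p = 0.0241). Its call was lost without vehicle culture 1, 2 or 4 (edgeR adjusted p = 0.104, 0.0562 and 0.0572), without TGF-β1 culture 5 or 6 (0.102 and 0.0915) and with DESeq2 (0.0694), and 26.3% of its 50-base words are shared with other genes, mainly *Ccdc24* on the opposite strand.

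*Slc6a20a*, a proline carrier, and its adjacent relative *Slc6a20b* have 26.7% and 27.9% of their words in other genes. Each shares words with the other, and *Slc6a20b* also with Sacm1l, a gene on the opposite strand that overlaps 21.1% of its exon bases, so that both counts are uncertain. *Slc6a20b* was at 7.15 ± 1.14 and 5.99 ± 0.718 CPM with overlapping groups (log2 fold change -0.25, SE 0.10, edgeR adjusted p = 0.0392). That call did not hold without vehicle culture 1 (edgeR adjusted p = 0.0773), vehicle culture 2 (0.271, with a log2 fold change of -0.15), TGF-β1 culture 6 (0.0958) or TGF-β1 culture 7 (0.167), nor with DESeq2 (0.110). *Slc6a20a*, at 0.480 and 0.568 CPM, did not pass (0.24, SE 0.29, edgeR adjusted p = 0.555).

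The carriers of taurine and creatine, both among the 5 most abundant members, moved apart. *Slc6a6*, the taurine carrier TauT (ENSMUSG00000030096, chr6:91684053-91759066), was at 350, 357, 338 and 349 CPM in vehicle and at 245, 244, 256 and 244 CPM in TGF-β1 cultures. Its level was 29.1% lower with TGF-β1 in the fit, and the groups were far apart (log2 fold change -0.50, SE 0.02, edgeR adjusted p = 1.09e-21). *Slc6a8*, the creatine carrier (ENSMUSG00000019558, chrX:73673150-73682502), was at 273, 274, 274 and 280 CPM against 385, 378, 385 and 372 CPM. Here every TGF-β1 value was higher, by 38.1% in the fit (0.47, SE 0.02, edgeR adjusted p = 1.3e-21). The ratio of *Slc6a6* to *Slc6a8* in RPKM was 0.762 to 0.803 with vehicle and 0.393 to 0.410 with TGF-β1, and by mean RPKM *Slc6a8* went from rank 4 to rank 2 among the members while *Slc6a6* went from rank 5 to rank 6.

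The members that carry no amino acid gave 1 call. *Slc43a3*, the purine nucleobase carrier, rose from 35.5 ± 1.81 to 45.3 ± 0.167 CPM (log2 fold change 0.35, SE 0.04, edgeR adjusted p = 2.1e-10). *Slc7a6os*, whose gene ends 2010 bp from that of *Slc7a6* on the opposite strand, was at 23.7 and 23.6 CPM (-0.01, SE 0.05, edgeR adjusted p = 0.942). The monoamine carriers *Slc6a2*, for noradrenaline, and *Slc6a4*, for serotonin, were below 1 CPM with overlapping groups and did not pass (edgeR adjusted p = 0.785 and 0.965).

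The 20 members not tested were at 28 counts or fewer in every culture. *Slc6a12*, the carrier of betaine and GABA, was at 2 to 5 counts in vehicle and 8 to 28 counts in TGF-β1 cultures, and *Slc7a9*, the cystine light chain of *Slc3a1*, at 10 to 24 and 2 to 5 counts. When the filter only required a single count in some culture, both were called, with log2 fold changes of 2.32 (edgeR adjusted p = 1.2e-05) and -2.12 (edgeR adjusted p = 0.00126), sizes that are uncertain at so few reads. The proline carrier *Slc6a7* was at 6 to 18 counts, the glycine carrier *Slc6a5* at 2 to 14 and *Slc38a8* at 0 to 12. The others not tested included *Slc6a3*, *Slc6a11*, *Slc6a14*, *Slc6a16*, *Slc6a18*, *Slc6a19*, *Slc6a21*, *Slc7a10*, *Slc7a12*, *Slc7a13*, *Slc36a2*, *Slc36a3*, *Slc38a5* and *Slc38a11*, none of these above 10 counts in any culture, and their differences were not detectable at this depth.

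Promoter sequence was read for motifs, as a description of the genes. RefSeq windows on GRCm38.p6, from 250 bases before to 50 after a start site, were matched by symbol for 44 of the 62 members, 63 windows in all, and each motif was searched on both strands. The core of the amino acid response element, TGATGNAA, which C/EBP and ATF proteins bind when amino acids are scarce, lay in 4 member windows (6.35%) and in 3.97% of all 32851 windows. The pattern TGANTCA lay in 9 member windows (14.3%) and in 7.81% of all windows. It is wider than the AP-1 consensus, which has C or G as its middle base, so these are not shares of AP-1 sites. The palindromic SMAD box GTCTAGAC lay in none of the member windows and in 0.213% of all windows. The 3 motifs do not overlap each other in the windows shown.

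Windows that hold a match are shown for the 5 members that have one and were called, 1 of those of *Slc7a7* being left out, with the matched bases in capitals. The first are those of *Slc6a17*, the largest rise among the members tested, where each window holds a TGANTCA match, beginning 31 and 33 bases before the start. The match reads TGAATCA in the window shown first and TGAGTCA, the AP-1 consensus, in the other.
Slc6a17, chr3:107500691-107500990, minus strand: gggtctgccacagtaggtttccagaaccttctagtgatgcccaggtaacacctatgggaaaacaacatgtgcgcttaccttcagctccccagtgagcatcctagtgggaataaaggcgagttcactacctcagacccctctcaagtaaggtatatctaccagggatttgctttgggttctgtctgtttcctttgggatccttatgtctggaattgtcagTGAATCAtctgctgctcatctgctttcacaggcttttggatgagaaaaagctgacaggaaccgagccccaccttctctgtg
Slc6a17, chr3:107517969-107518268, minus strand: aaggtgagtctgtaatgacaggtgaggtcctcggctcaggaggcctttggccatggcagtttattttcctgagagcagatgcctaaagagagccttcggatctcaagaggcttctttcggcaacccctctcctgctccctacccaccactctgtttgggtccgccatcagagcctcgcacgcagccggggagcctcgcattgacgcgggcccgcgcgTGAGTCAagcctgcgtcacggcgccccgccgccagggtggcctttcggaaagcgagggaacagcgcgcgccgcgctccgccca

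*Slc38a7*, which fell, also holds a TGANTCA match, beginning 45 bases before its start. So, further upstream, does *Slc38a10*, which rose with a small change whose call was lost under some alternatives. Both matches read TGATTCA and lack the C or G of the AP-1 consensus. The last bases of the *Slc38a7* window are in no GENCODE M21 transcript of that gene.
Slc38a7, chr8:95853442-95853741, minus strand: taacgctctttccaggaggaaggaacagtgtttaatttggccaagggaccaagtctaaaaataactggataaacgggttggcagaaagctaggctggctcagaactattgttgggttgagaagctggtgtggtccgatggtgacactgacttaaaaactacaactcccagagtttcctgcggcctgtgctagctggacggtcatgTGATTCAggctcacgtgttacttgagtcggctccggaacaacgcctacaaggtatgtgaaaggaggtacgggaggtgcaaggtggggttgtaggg
Slc38a10, chr11:120151302-120151601, minus strand: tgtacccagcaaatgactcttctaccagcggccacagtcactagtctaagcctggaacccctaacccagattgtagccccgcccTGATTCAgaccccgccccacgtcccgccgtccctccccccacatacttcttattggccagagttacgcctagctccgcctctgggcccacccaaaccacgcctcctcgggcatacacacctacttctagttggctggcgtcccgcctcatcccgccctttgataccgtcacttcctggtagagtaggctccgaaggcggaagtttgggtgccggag

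The amino acid response core lay across the start site of *Slc1a4*, a gene that fell, read on the opposite strand. In a window of *Slc7a7*, which rose, it occurred beginning 141 bases and 1 base before the start. The last bases of that *Slc7a7* window are in no GENCODE M21 transcript of the gene.
Slc1a4, chr11:20332664-20332963, minus strand: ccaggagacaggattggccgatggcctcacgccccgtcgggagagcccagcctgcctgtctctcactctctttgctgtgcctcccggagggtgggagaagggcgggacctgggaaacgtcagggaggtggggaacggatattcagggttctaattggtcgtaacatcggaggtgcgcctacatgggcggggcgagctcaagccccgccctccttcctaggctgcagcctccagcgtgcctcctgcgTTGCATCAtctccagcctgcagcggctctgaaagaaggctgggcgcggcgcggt
Slc7a7, chr14:54417895-54418194, minus strand: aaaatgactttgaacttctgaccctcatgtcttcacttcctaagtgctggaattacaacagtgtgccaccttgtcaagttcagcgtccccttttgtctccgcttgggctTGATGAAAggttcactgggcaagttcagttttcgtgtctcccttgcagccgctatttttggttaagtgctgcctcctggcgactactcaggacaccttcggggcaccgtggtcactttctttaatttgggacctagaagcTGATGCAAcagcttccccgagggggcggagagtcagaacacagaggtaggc

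The TGANTCA pattern and the response core thus each occurred in members that rose and in members that fell. With C or G in the middle, as in the AP-1 consensus, the only called member with a match was *Slc6a17*, which rose. The remaining TGANTCA matches were in *Slc3a1*, *Slc7a1*, *Slc6a5*, *Slc6a12* and *Slc6a14*. The remaining response core matches were in *Slc6a21* and in a further window of *Slc7a7*. That window overlaps the one shown, and its match is the same site that begins 1 base before the start there, so this site counts in both windows. A match describes these letters only, and binding was not measured.

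Amino acid carriers of other families were listed to place the members among their kind. Of 19 tested, 3 rose and 7 fell, with a median log2 fold change of -0.08, against 20.9% and 20.3% of all genes. *Slc17a8*, the vesicular glutamate carrier VGLUT3, fell from between 52.1 and 54.4 CPM to between 6.38 and 7.39 CPM (-2.94, SE 0.05, edgeR adjusted p = 3.86e-38), a larger change than that of any member. *Slc16a10*, the aromatic amino acid carrier TAT1, fell from between 30.8 and 34.6 CPM to between 17.9 and 20.3 CPM (-0.80, SE 0.05, edgeR adjusted p = 4.06e-18). The mitochondrial carrier gene *Slc25a48*, at 4 to 19 counts, had a log2 fold change of 1.22 (SE 0.41, edgeR adjusted p = 0.0157). That call was lost without vehicle culture 2, vehicle culture 4 or TGF-β1 culture 7 and with halved counts and DESeq2, with adjusted p up to 0.132.

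Genes of lysosomal amino acid sensing and of mTORC1, the kinase complex that responds to amino acid supply, were called in both directions. All 32 found in the files were tested, and 9 rose and 9 fell, together 56.2% of the list against 41.3% of all genes. The median log2 fold change was -0.01, as over all genes. *Sesn1*, an inhibitor of the pathway, fell from 57.0 ± 1.09 to 35.3 ± 1.73 CPM (-0.69, SE 0.04, edgeR adjusted p = 4.49e-20). *Rragb*, a Rag GTPase of the lysosome surface, fell from 7.21 ± 0.463 to 5.10 ± 0.141 CPM (-0.50, SE 0.09, edgeR adjusted p = 6.8e-06). *Fnip2*, a partner of folliculin, rose from 182 ± 4.79 to 246 ± 4.18 CPM (0.44, SE 0.02, edgeR adjusted p = 1.97e-19).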

How the data were processed

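RNA was sequenced from 8 mouse brain pericyte cultures with a stranded total RNA kit. Raw counts per Ensembl gene were deposited by the authors without normalization. According to the submitters' processing notes and the study's methods, reads were aligned to mm10 with STAR 2.7.5c in its 2-pass mode, duplicates were removed with SAMtools 1.15 and reads were counted with featureCounts 2.0.3. The annotation release, the strand setting and the handling of reads that fit several genes are not given in the sources used here. Without strand, reads of genes that overlap on opposite strands cannot be told apart.

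Of 54532 identifiers, 54495 were paired with a symbol through GENCODE M21 (GRCm38). The counts were tested with edgeR 4.0.16 in R 4.3.3 (filterByExpr, TMM factors, robust quasi-likelihood fit), with Benjamini-Hochberg adjustment over 22544 genes and a threshold of 0.05. The SE was the log2 fold change divided by the square root of F. CPM used the library total times the TMM factor, and RPKM the union of a gene's exons. Uncertain counts were described by the share of a gene's 50-base transcript words that occur in other genes. The code was tested on simulated data.

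Every member tested could be named. The values of 1 member that was not tested are not reported here. Values in all cultures are given for members with an adjusted p under 0.05 and an absolute log2 fold change of at least 0.5 and for the 5 of highest mean RPKM, and the 3 largest changes for each list of other genes. Members, substrate classes and lists were chosen with earlier results of these data known. Cell type markers were lists for pericytes, endothelium, astrocytes, macrophages and microglia, neurons, oligodendrocytes and fibroblasts.

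Between 68.5% and 70.2% of the counts from 1 to 20 were even. Where both mates of a pair were counted, there are fewer independent fragments than counts. Alternatives were DESeq2 1.42.0, other size factors, other filters, halved counts, each culture left out, and the members without those that carry no amino acid. Halved counts with DESeq2 were added after the data were seen.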

Additional observations from a re-analysis of the deposited data

Results flagged for a closer look

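In each group of 4 cultures, the highest and lowest values of each of the 42 members tested were compared with the nearest other culture, and 7 of 84 groups had a culture whose gap exceeded Dixon's 95% limit. Chance gives about 1 in 20, or 4.2 groups. With vehicle, *Slc6a8* was at 279.5 CPM in culture 4 (nearest culture 274.0 CPM), *Slc38a10* at 180.4 CPM in culture 2 (nearest 186.2 CPM) and *Slc7a4* at 2.32 CPM in culture 1 (nearest 2.87 CPM). With TGF-β1, *Slc6a6* was at 256.2 CPM in culture 7 (nearest 245.5 CPM), *Slc7a6* at 53.8 CPM in culture 7 (nearest 56.3 CPM), *Slc1a6* at 3.05 CPM in culture 5 (nearest 2.64 CPM) and *Slc38a2* at 533.9 CPM in culture 6 (nearest 521.7 CPM). In none of the 7 did the culture that stood apart lie within the range of the other group.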

How the results depend on the processing

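The number of members called was 24 to 28 over all alternatives, against 27, with the lowest count when vehicle culture 2 was left out, 26 with DESeq2 and 26 without the members that carry no amino acid. These counts include members outside the main test that an alternative called. The 26 with DESeq2 include *Slc6a12* and *Slc7a9*, while *Slc6a9*, *Slc6a20b* and *Slc38a9* lost their call there. Without vehicle culture 2, *Slc6a9*, *Slc6a20b*, *Slc38a9* and *Slc38a10* lost theirs. The number of all genes called was 7306, with halved counts and DESeq2 (an alternative added after the data were seen), to 9311, with upper-quartile factors, against 9304. Of the 27 called members, 21 kept their call and direction under every alternative. The 6 others were *Slc6a9*, *Slc6a20b*, *Slc38a9*, *Slc38a10*, *Slc7a7* and *Slc7a15*, the last with halved counts and DESeq2 alone (adjusted p = 0.0635). *Slc6a12* and *Slc7a9*, outside the main test and so not among the 27, were called by DESeq2 (log2 fold changes 2.37 and -2.15, adjusted p = 0.000159 and 0.00232). The direction turned only in members without a call: with 1 culture left out, the log2 fold change lay between -0.0973 and 0.350 for *Slc1a7*, -0.257 and 0.0589 for *Slc6a2*, -0.0477 and 0.0261 for *Slc7a6os*, -0.0398 and 0.00142 for *Slc36a1*, and -0.230 and 0.119 for *Slc6a4*, and for *Slc6a4* it was 0.0108 with halved counts and DESeq2. *Slc25a48* also lost its call when single cultures were left out, with adjusted p up to 0.132 over its alternatives. No paired analysis was possible because the labels number the vehicle cultures 1 to 4 and the TGF-β1 cultures 5 to 8. Members below about 0.5 CPM have wide intervals, and a change in them could be missed at this depth.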

Other observations

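Members that lie next to each other in the genome did not always move together. *Slc6a20b*, with a log2 fold change of -0.25, and *Slc6a20a*, with 0.24 and no call, are 2204 bp apart on the same strand of chromosome 9. *Slc43a1* (0.27, not called) and *Slc43a3* (0.35, called) are 72984 bp apart on chromosome 2, and *Slc38a1* (0.12, called) and *Slc38a2* (0.03, not called) are 44478 bp apart on chromosome 15. *Slc7a6* (0.55, called) and *Slc7a6os* (-0.01, not called), on chromosome 8, are on opposite strands. The differences between neighbours were not tested.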
